A study of Drosophila melanogaster with 2 samples.

Results

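The 10 genes described here encode corepressors and histone deacetylases of Drosophila melanogaster: gro, CtBP, HDAC1, HDAC3, HDAC4, HDAC6, Sin3A, Smr, ebi and CoRest. They were chosen by name, as 10 of 13945 protein-coding genes, and all 10 matched a symbol in the annotation. The data are chromatin immunoprecipitation with sequencing (ChIP-seq) of Gug, a transcriptional corepressor, in whole prepupae aged 1 day. The strain is labelled Gug-GFP, carries an insertion that targets Gug and makes a Gug-eGFP fusion protein, and the precipitation used an antibody to GFP. There was a single group with 2 biological replicates, both given the same donor in the labels, sex was not collected, and the controls belong to a separate experiment. With 1 group no difference between conditions could be tested. Counts of genes with a summit are therefore descriptions, set beside the share of all coding genes that hold one. Whole animals were used, so a peak cannot be assigned to a tissue, and expression of the genes was not measured.

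A corepressor does not as a rule bind DNA itself. Sequence-specific repressors bring it to a gene, and it brings enzymes that remove acetyl groups from histones, a change that goes with lower transcription. Groucho, the product of gro, is recruited by Hairy and the Enhancer of split proteins, and CtBP by repressors such as Snail. Sin3A, Smr (also called SMRTER), ebi and CoRest are scaffolds or subunits that hold deacetylases, and HDAC1 and HDAC3 are the nuclear enzymes of such complexes. Gug, the Drosophila Atrophin, is itself a corepressor that works with histone deacetylases.

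A peak's summit is its highest point, and the region of a gene ran from 2000 bp upstream of it to the gene end. The authors deposited a long ranked list of peaks and a shorter thresholded list. The thresholded list holds peaks with an irreproducible discovery rate (IDR, the expected share of peaks that do not repeat) of 0.01 or less. The larger of the 2 thresholded sets from both replicates had 5750 summits on the chromosome arms. Its ranked list is described as made from pseudoreplicates, which are not the biological replicates. The smaller, conservative set is described as made from the 2 replicates. Unless stated, the IDR given here is that of the larger set. By itself it is thus not a measure of agreement between the biological replicates. The signal of a peak is the caller's own value and has no stated unit. No read depth was known for either library, so no interval was given to any signal.

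Of the 10 genes, 7 held a thresholded summit (70%): gro, CtBP, HDAC1, HDAC4, HDAC6, Smr and ebi. Over all coding genes the share was 25.7%. HDAC3, Sin3A and CoRest held none. In 6 of the 10 genes (60%) a start of their own had a summit at most 1000 bp away, against 18.9% of all coding genes, and HDAC1 was the one with a summit only farther away. That share was not matched for the number of transcript starts. HDAC6 has 6 starts and gro and CoRest have 4, while HDAC1, HDAC3 and ebi have 1 each. All 10 genes held a summit in the ranked list, where the share over all coding genes was 79.3%. In 6 of the 10 genes a summit's peak overlapped a thresholded peak of each replicate by at least 1 bp, against 17.2% of all coding genes. The 10 genes are long, with a median region of 10.6 kb against 4.17 kb for all coding genes. Among coding genes with a region 0.8 to 1.25 times as long as the member's, the share with a summit ran from 18.7% for the length of HDAC3 to 65.5% for that of Smr. Between these it was 22.7% for HDAC1, 26.5% for ebi, 36.8% for HDAC6 and 40.4% for gro. It was 42.4% for CoRest, 51.4% for CtBP, 55.4% for Sin3A and 56.2% for HDAC4. Most of these shares lie above the 25.7% of all coding genes.

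**Figure D1:**
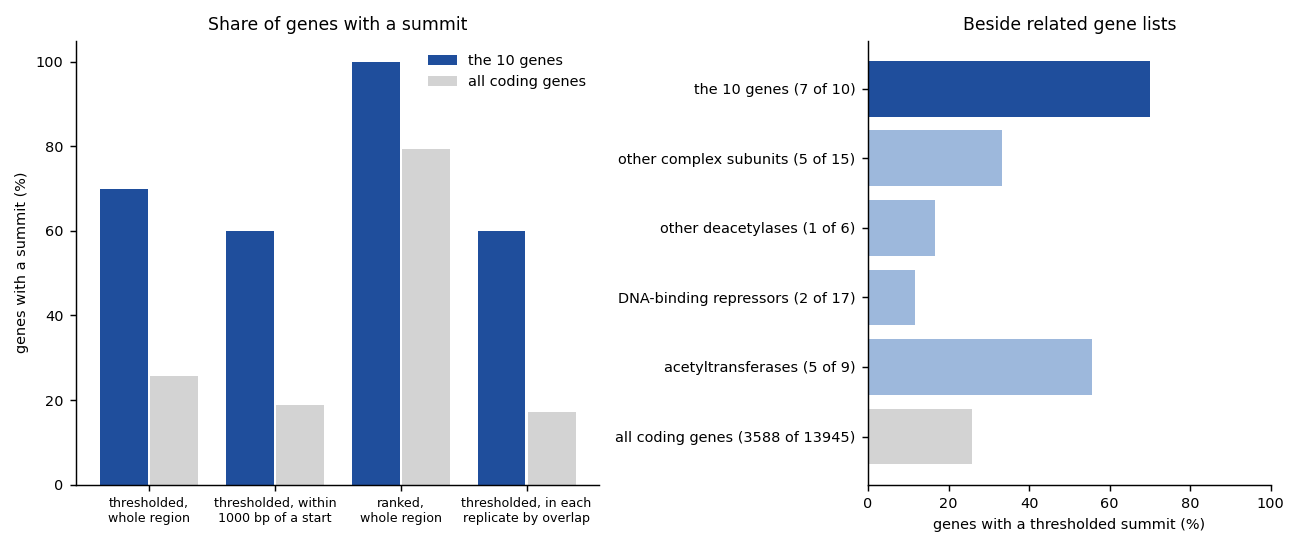
Percentage of genes with a summit: at left for the 10 genes (blue) and all coding genes (grey) under 4 definitions, at right for the 10 genes, 4 related gene lists and all coding genes. The blue bars stand at 70%, 60%, 100% and 60%, against grey bars at 25.7%, 18.9%, 79.3% and 17.2%.

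The DNA is shown under the summits that the account of each gene turns on: the strongest of CtBP, HDAC1 and ebi, both of gro, the 2 strongest of Smr, and the one of HDAC4 that both replicates listed. Each run is the plus strand, taken from the RefSeq sequence of Release 6 (dm6), and covers 100 bp to either side of a summit, less any annotated UTR. Capitals mark the motifs GAGAG (bound by GAGA factor), TATAAA (the core of a TATA box) and GTGGGAA (the site of Su(H)) on either strand, and a run with no capitals holds none of the 11 motifs searched. The 2 runs for gro are its strong summit and its first start. The run of HDAC1 lies in an intron of Src64B, that of HDAC4 at a second start, and that of ebi between ebi and AP-2alpha.
gro chr3R:26042418-26042618: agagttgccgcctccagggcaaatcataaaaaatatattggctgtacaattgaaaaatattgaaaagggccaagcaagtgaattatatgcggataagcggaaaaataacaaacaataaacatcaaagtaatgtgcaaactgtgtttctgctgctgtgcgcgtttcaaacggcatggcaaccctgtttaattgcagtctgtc
gro chr3R:26041539-26041735: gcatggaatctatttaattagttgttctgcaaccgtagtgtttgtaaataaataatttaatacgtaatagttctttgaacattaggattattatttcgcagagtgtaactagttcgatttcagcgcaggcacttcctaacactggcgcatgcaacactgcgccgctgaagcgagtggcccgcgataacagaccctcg
CtBP chr3R:13012441-13012641: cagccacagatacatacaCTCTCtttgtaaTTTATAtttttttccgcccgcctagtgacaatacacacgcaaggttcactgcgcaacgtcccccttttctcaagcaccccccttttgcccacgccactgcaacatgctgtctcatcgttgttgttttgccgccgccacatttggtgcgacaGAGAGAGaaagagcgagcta
HDAC1 chr3L:4624800-4625000: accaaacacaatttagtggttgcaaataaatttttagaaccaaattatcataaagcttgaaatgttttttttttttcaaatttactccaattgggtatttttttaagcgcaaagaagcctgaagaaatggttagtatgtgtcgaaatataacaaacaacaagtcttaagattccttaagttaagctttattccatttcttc
HDAC4 chrX:13272943-13273143: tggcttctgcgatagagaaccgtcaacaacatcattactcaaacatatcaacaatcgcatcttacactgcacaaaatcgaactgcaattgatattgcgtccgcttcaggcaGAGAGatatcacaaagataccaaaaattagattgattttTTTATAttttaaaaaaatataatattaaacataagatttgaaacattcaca
Smr chrX:12725267-12725467: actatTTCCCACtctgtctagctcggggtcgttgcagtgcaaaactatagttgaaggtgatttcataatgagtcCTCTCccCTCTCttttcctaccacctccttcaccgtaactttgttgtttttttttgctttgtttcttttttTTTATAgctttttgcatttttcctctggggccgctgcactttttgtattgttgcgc
Smr chrX:12737381-12737581: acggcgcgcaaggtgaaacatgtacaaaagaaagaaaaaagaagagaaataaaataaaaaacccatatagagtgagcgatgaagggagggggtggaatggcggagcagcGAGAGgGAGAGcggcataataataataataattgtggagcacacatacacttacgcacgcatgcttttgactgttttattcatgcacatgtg
ebi chr2L:414778-414955: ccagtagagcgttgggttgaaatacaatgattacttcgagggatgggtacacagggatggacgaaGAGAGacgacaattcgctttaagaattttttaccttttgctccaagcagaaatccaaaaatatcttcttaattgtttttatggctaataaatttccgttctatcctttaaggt

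The corepressor gene gro (FBgn0001139, dm6 3R 26041736 to 26049911, plus strand) had the strongest summit of the 10 genes. The summit at 26042518 had a signal of 599, with 278 in replicate 1 and 321 in replicate 2, and was in the thresholded list of both. It ranked 147 among the 5750 summits, and gro ranked 207 among the 3588 coding genes with a summit. It lay 123 bp before the start of transcript gro-RF, 782 bp after the first start and in the first intron of 8 of the 10 transcripts. A second summit lay 97 bp before the first start, at 26041639, with a signal of 139. Its signal was 73.9 in replicate 1 and 66.1 in replicate 2, but only replicate 1 listed it past the threshold. The other 6 ranked peaks of gro were at 43.7 or lower.

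CtBP, the corepressor gene whose product binds short peptide motifs of repressors (FBgn0020496, 3R 13011649 to 13026275, plus strand), held 1 summit. It lay in the first intron, at 13012541 and 892 bp after the start, with a signal of 209. Replicate 1 had 80.8 and replicate 2 had 124.9 there, and both listed it. A further 14 ranked peaks in its region stayed below the threshold. The highest of them, at 13014374, had a signal of 84.0 and was thresholded in the conservative set and in replicate 1 (46.0), but not in replicate 2 (38.2). CtBP is thus a gene with 1 or 2 summits, depending on the list.

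Smr encodes the corepressor SMRTER, a partner of the ecdysone receptor (FBgn0265523, X 12684203 to 12742618, minus strand). At 58.4 kb it was the longest of the 10 genes, and it held 10 of their 22 summits. Over all coding genes, 42 (0.301%) held 10 or more. Among 197 genes of similar length 12 did so (6.09%), and their median was 2. Per 10 kb, Smr had 3.36 times the density of the X chromosome as a whole. Its signals ran from 77.2 to 236, with a median of 109, close to the 112 of all summits. Of the 10 summits, 8 were in the conservative set at the same coordinates, and that set held 9 summits in Smr. Those at 12738196 and 12735294 were not in it. The −log10 of their IDR was 3.53 and 3.44 in the larger set, and 1.13 and 0.163 in the conservative one.

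The strongest Smr summit, at 12725367, lay in an intron 17251 bp after the first start and had a signal of 236, with 114 in replicate 1 and 104.7 in replicate 2. The next, at 12737481, was 5137 bp after that start and had a signal of 190 (91.4 in replicate 1 and 105.5 in replicate 2). Then followed that at 12719353, with 154 (70.4 in replicate 1 and 89.6 in replicate 2). The summits at 12725367 and 12719353 also lie within the noncoding gene lncRNA:CR43963. All 3 were in the lists of both replicates, as were those at 12735800 (signal 114) and 12744274 (97.7). Between 4.42 and 8.08 kb after the first start, 5 summits stood within 3.66 kb. In that cluster the summit at 12735294 had 12.1 in replicate 1 and 86.8 in replicate 2. Its neighbour at 12735800, 506 bp away, had 56.9 in replicate 1 and 62.6 in replicate 2. The replicates differed at the first of these 2 neighbours and were close at the other. They also differed in that cluster at 12738196, with 67.0 in replicate 1 and 29.9 in replicate 2, and only replicate 1 listed it. At 12734539 they had 38.7 and 46.4.

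Of the 10 summits, 4 lay nearer to the start of another coding gene, 2 of them upstream of Smr. The one at 12744274 was 62 bp from the start of CG4004, and the one at 12743539 was 673 bp from it and 921 bp before Smr. The other 2, at 12719353 and 12699301, lie in introns of Smr but nearer to the start of CG15725. With every summit nearer to another gene's start left out, Smr held 6.

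ebi, which encodes a subunit of the SMRTER complex with WD repeats (FBgn0263933, 2L 415067 to 418536, plus strand), held 2 summits 200 bp apart. The one at 414855, 212 bp before the start, had a signal of 146 and a replicate 1 value of 79.6, in replicate 1's list. The other, at 415055 and 12 bp before the start, had a signal of 11.0 and a replicate 2 value of 67.8, in replicate 2's list. Each replicate thus placed its summit at a different point of one promoter stretch. The peaks of the replicates overlap there. The start of AP-2alpha, an adaptor protein gene of vesicle traffic, lies 78 bp from the first of these summits, so the stretch lies at the starts of both genes. Coding genes of similar length had a summit in 26.5% of cases, and 2 or more in 5.06%. For ebi the count of 2 includes the summit with a signal of 11.0.

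Sin3A is the scaffold of the Sin3 deacetylase complex (FBgn0022764, 2R 12575240 to 12592917, minus strand). It had no thresholded summit, yet 3 of its 12 ranked peaks met the same IDR limit of 0.01. The intronic peak at 12591633 had a signal of 153, with 63.1 in replicate 1 and 87.8 in replicate 2. A promoter peak at 12589578, 426 bp before a second start, had 134 (36.0 in replicate 1 and 91.9 in replicate 2). A promoter peak at 12593032, 115 bp before the first start, had 129 (52.3 and 75.9). All 3 signals lie above the 112 at the middle of the thresholded list, and the −log10 of their IDR was 4.09 to 4.44.

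None of these 3 peaks is in the thresholded list of both replicates, of the conservative set or of either replicate. In replicate 1's own ranked list only that at 12591633 met the limit, with a −log10 of 3.25. Those at 12589578 (1.28) and 12593032 (1.91) fell short of it there. In the ranked lists of replicate 2 and of the conservative set all 3 met it. On the arms 102 peaks met the limit without being in the larger set, 5 of them on 2R. Of those 5, 3 are in Sin3A. Over the genome 39 coding genes hold such a peak and no thresholded summit. The files do not state why peaks that met the limit are left out. The deposited notes name a further region file for the thresholded lists, whose part in this was not tested. No thresholded summit lay between 12565723 and 12598539. With all peaks that met the limit counted, 8 of the 10 genes hold a summit, against 26.0% of all coding genes.

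**Figure D2:**
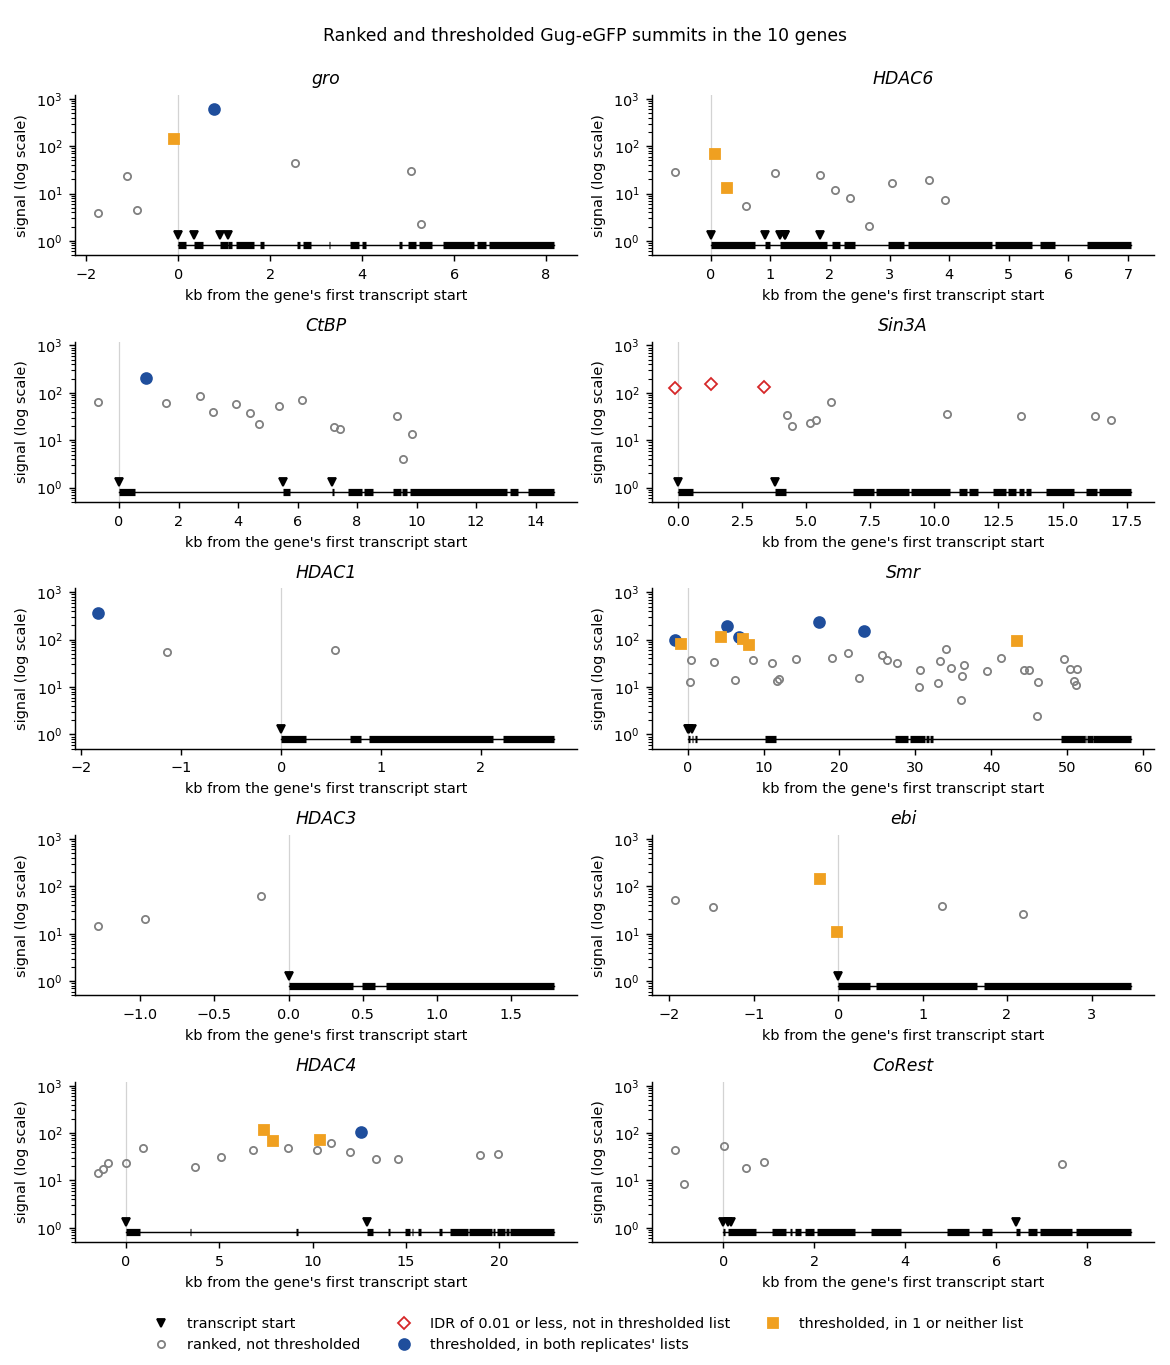
Signal (log scale) of each ranked peak in the 10 genes against the distance of its summit from the gene's first transcript start in kb, in the direction of transcription; thick black bars are exons and triangles are transcript starts. The filled circle of gro stands highest at 599, Smr has 10 filled symbols, and the 3 red diamonds of Sin3A lie between 129 and 153.

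CoRest, whose product holds a histone demethylase and deacetylase together (FBgn0261573, X 19521929 to 19530896, plus strand), had no thresholded summit and 6 ranked ones. The strongest, at 19521942 and 13 bp after a start, had a signal of 53.8 and a replicate 1 value of 24.3, with no replicate 2 peak within 100 bp. The −log10 of its IDR was 0.251 in the larger set and 1.62 in the conservative one, both under the 2 that the threshold asks for.

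Among the deacetylases, HDAC1 (Rpd3, the enzyme of the Sin3 and NuRD complexes) had the strongest summit (FBgn0015805, 3L 4626734 to 4629467, plus strand). At 4624900 its signal was 357, with 146 in replicate 1 and 216 in replicate 2, and both listed it. It ranked 449 of 5750. It lay 1834 bp upstream of HDAC1, in an intron of Src64B, a tyrosine kinase gene, whose start was nearer at 1232 bp. With summits in the gene body alone HDAC1 held 0. In its region 2 further ranked peaks stayed below the threshold, the higher at 4627268, 534 bp after the start, with a signal of 60.6.

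HDAC3, the deacetylase of the SMRTER complex, is the shortest of the 10 genes (FBgn0025825, 3R 5472810 to 5474600, minus strand). It had no thresholded summit. The strongest of 3 ranked peaks lay 183 bp before the start, at 5474783, with a signal of 64.0 (29.0 in replicate 1 and 30.4 in replicate 2). The start of the neighbouring gene Hcs was nearer, at 116 bp. Of coding genes this long, 18.7% held a thresholded summit, so most had none.

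HDAC4, a class IIa deacetylase known in flies for roles in metabolism and memory (FBgn0041210, X 13262687 to 13285632, minus strand), held 4 summits within 5.20 kb, none of them near its first start. They lay 7.39 to 12.6 kb after it. At 13278247 the signal was 116, with 73.2 in replicate 1 and 45.7 in replicate 2, listed by replicate 1 alone. At 13273043, 299 bp before the start of transcript HDAC4-RB, it was 106, with 49.3 and 59.1, listed by both. The summits at 13275219 and 13277776 had 72.9 and 68.2 and had no thresholded summit within 100 bp in either replicate. The peak of the first did overlap a thresholded peak of replicate 1, whose summit lay farther off, at 13275335, with a signal of 43.9. At genes of similar length 12.3% held 4 or more.

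HDAC6, which removes acetyl groups from tubulin in the cytoplasm (FBgn0026428, X 15333310 to 15340360, plus strand), had the weakest support of the 7 genes. Its summit at 15333385, 75 bp after the start, had a signal of 68.8, with 32.5 in replicate 1 and 38.1 in replicate 2, and neither replicate listed it. A second at 15333591, 206 bp on, had 13.1 and is absent from the conservative set. Only 305 of all 5750 summits (5.30%) had a signal under 20, and 2 of them were in the 10 genes, this one and the weaker of ebi. HDAC6 held no summit in either replicate's own list.

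**Figure D3:**
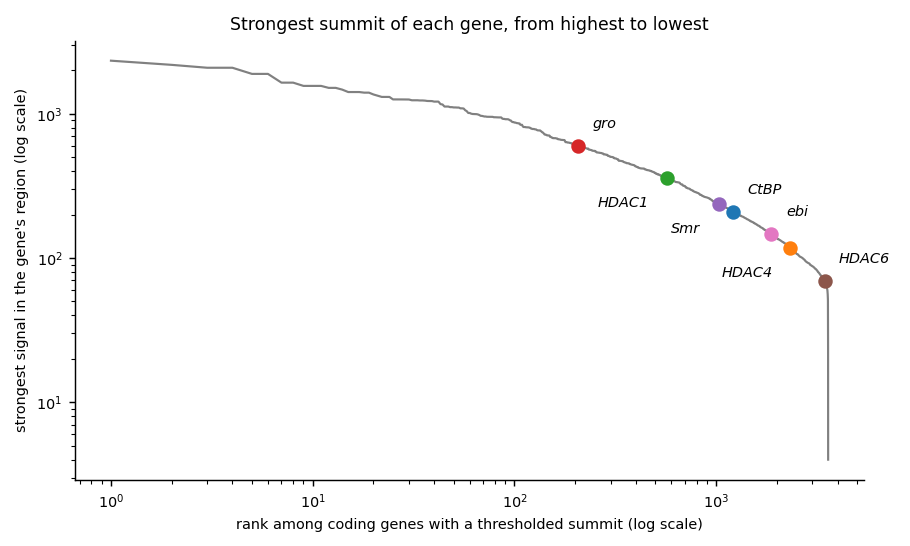
Strongest thresholded signal of each coding gene with a summit (log scale) against its rank (log scale), the line for all 3588 genes and the points for the 7 members. The points run from gro at rank 207 to HDAC6 at rank 3444.

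Over the 22 summits, 8 were at promoters (within 500 bp of any transcript start), 13 in introns and 1 between genes, with none in a coding exon. Promoters held 36.4%, against 35.8% of all 5750 summits. Introns held 59.1%, against 45.7%, and Smr alone had 8 of the 13. Intergenic sequence held 4.55%, against 16.0%. The regions of genes include little intergenic sequence by construction, so the classes are given as counts only. Of the 22 summits, 16 lay on X, where 4 of the 10 genes are, and without Smr 12 summits remain. Their median signal was 109.8 against 112 for all summits, and 11 of 22 lay above that value. The signals of the 10 genes as a group were near the middle of the list, and those of gro and HDAC1 were high within it.

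Support from the replicates was uneven. In the conservative set 19 of the 22 summits were present at the same coordinates, and that set held 21 summits in the 10 genes. Of the 22 summits, 9 had a thresholded summit within 100 bp in both replicates (40.9%), against 50.2% of all summits. Their signals ran from 97.7 to 599. In 1 replicate alone there were 7 (4 in replicate 1, 3 in replicate 2), and 6 were in neither, with signals of 13.1 to 91.6. Counted in the replicates' own lists, the 10 genes held 16 summits in replicate 1 and 12 in replicate 2. In replicate 1's list 6 of the 10 genes held one, against 20.3% of all coding genes, and in replicate 2's list 6 of the 10 did, against 21.1%. HDAC4 had 3 summits in replicate 1's list and 1 in that of replicate 2. A ranked peak within 100 bp in both replicates was found for 18 summits. Replicate 2 over replicate 1 had a median ratio of 1.16 there, against 1.24 over 5075 summits, and ran from 0.446 to 7.17. Whether the 2 lists are on the same scale is not stated, so the ratio is read only beside that of all summits, of which 5% lay below 0.719 and 5% above 2.17.

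**Figure D4:**
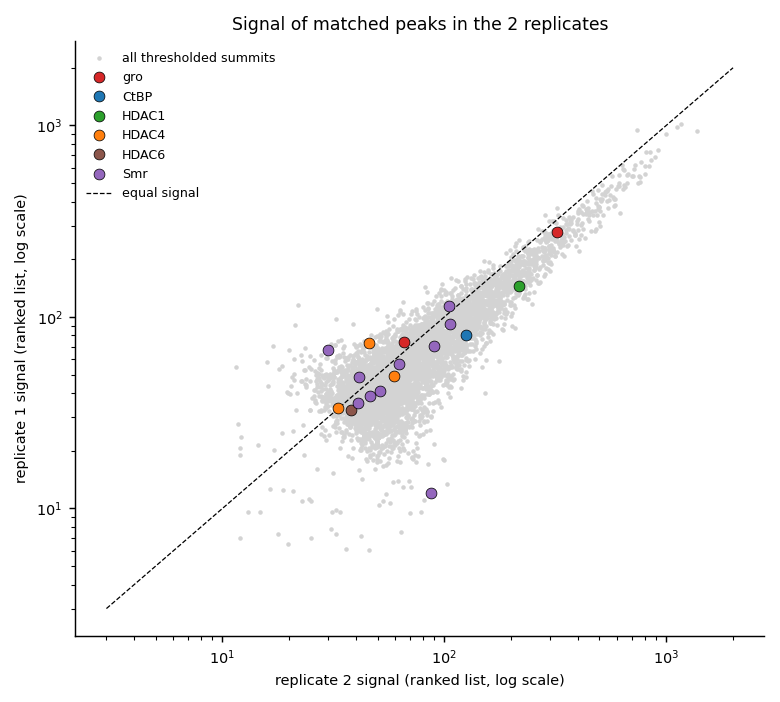
Signal in replicate 1 against signal in replicate 2 (both log scale) of the ranked peaks matched to thresholded summits, in colour for 18 summits of the 10 genes and grey for all 5075, with a dashed line at equal signal. Most coloured points lie in the grey cloud, and one Smr point, at 12.1 and 86.8, lies below it.

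Smr and HDAC4, the longest of the 10 genes, held the most summits. Sin3A and CtBP come next in length and had 0 and 1, fewer than the 2 of gro, HDAC6 and ebi. Relative to the density of their own arm, ebi had 8.61 times as many summits per kb, gro 4.88, HDAC1 4.52, HDAC6 4.49, Smr 3.36, HDAC4 3.26 and CtBP 1.49. HDAC3, Sin3A and CoRest had 0. In a short region a single summit is enough for a high ratio. The value of HDAC1 is 1 summit in 4734 bp, so these ratios do not rank the genes. For ebi and HDAC6 the count rests on a weak summit close to a stronger one. Leaving out summits within 300 bp of a stronger one takes each to 1.

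**Figure D5:**
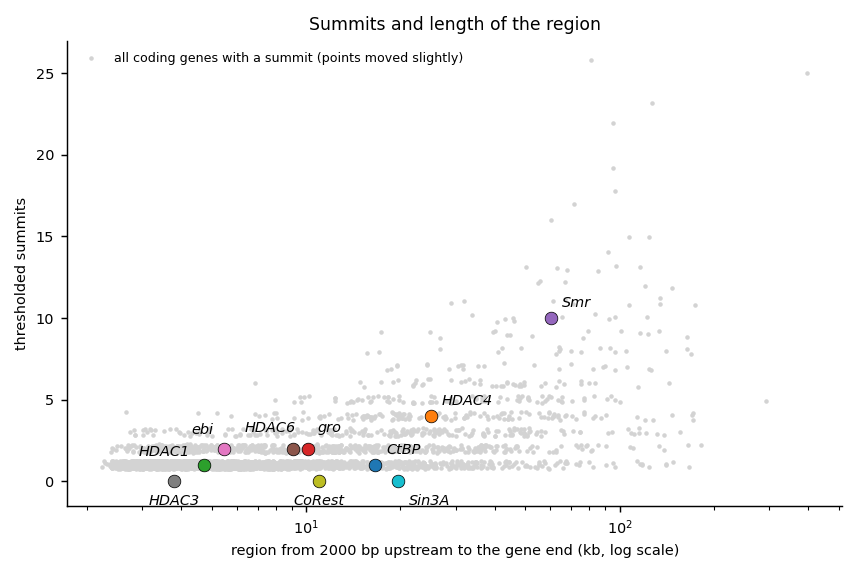
Number of thresholded summits against the length of the region in kb (log scale) for the 10 genes (labelled) and for all coding genes with a summit (grey). Smr stands at 10 summits, HDAC4 at 4, and HDAC3, CoRest and Sin3A at 0.

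In the windows reaching 100 bp to either side of the 22 summits, the motif GAGAG was in 10 windows (45.5%), at CtBP, HDAC4, HDAC6, Smr and ebi. It was in 24.3% of all summit windows, 21.7% of windows 1000 bp to either side and 22.5% of windows at gene starts. Of its 22 matches, counted on both strands and with overlaps, 7 were in 1 window of HDAC6, which is mostly 5′ UTR and is not printed. TATAAA was in 5 windows (22.7%), against 33.8% of all summit windows and 21.1% of flanks. CACACACA was in 3 (13.6%), against 4.35% and 4.83%, and GTGGGAA, the site of Su(H), in 2 of Smr, against 2.10% and 2.70%. The nuclear receptor half-site AGGTCA was in 1 window of HDAC4 (3.60% of all summit windows) and AAGTCA, the half-site of Tailless, in 1 of Smr (9.93%). CACGCG, a Hairy site, was in 1 of Smr (3.46%), and GGTCACAC (1.01%) and TGACTCA (1.57%), the AP-1 site, in 1 of ebi each. CACGTG (1.90%) and TATCGATA (1.29%) were in none. AGGTCA and GGTCACAC share letters and can overlap. None of the 11 was found in 6 windows: both of gro, that of HDAC1, and those of Smr at 12719353, 12735800 and 12699301. The GC content of the 22 windows had a median of 40.8% (22.9% to 57.2%), against 35.3% for all summit windows and 41.8% for flanks.

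Below the threshold, the 10 genes held 108 ranked summits of a total of 130. Of these 45 were in introns, 30 at promoters and 28 in coding exons, where none of the 22 thresholded summits of these genes lay. The classes count features of any gene, so some of the 28 lie in coding exons of neighbouring or overlapping genes. These are E(spl)m8-HLH, Hcs, CG15743 and CG15725. The 108 had a median signal of 27.7, against 26.0 over all 59693 such summits. Promoters held 27.8% of the 108 against 16.9% over all, and coding exons 25.9% against 18.9%. Intergenic sequence held 0 of them, against 21.2% over all. The choice of gene regions leaves little room for intergenic summits and so raises the other shares, which are a description only. Of the 30 at promoters, 8 were in HDAC6. A ranked peak within 100 bp in both replicates was found for 34, and for another 34 in neither. Apart from the peaks of Sin3A, the highest was that of CtBP at 84.0.

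Related genes, in lists chosen by role, gave a background of the same kind. Among 15 other subunits of corepressor and deacetylase complexes 5 held a summit (33.3%), with the strongest in Gug, the tagged gene itself, at 787. Among 6 other deacetylases Sirt7, a sirtuin, alone did (110). Sirt6, another of the 6, held 1 peak that met the IDR limit without being in the thresholded list, as Sin3A held 3. Among 17 DNA-binding repressors that work with Groucho, CtBP or Gug there were 2 (11.8%), the stronger of them brk, a repressor of Dpp targets, at 164. Among 9 histone acetyltransferases, which add the marks that deacetylases remove, there were 5 (55.6%), with Gcn5 at 462 as the highest. The median regions of these lists, 4.86 to 5.58 kb, are shorter than the 10.6 kb of the 10 genes, and no list was tested against another.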

How the data were processed

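ChIP-seq peak lists of 2 replicates were used, 1 ranked and 1 thresholded list for each replicate and for 2 sets of both together. The authors' deposited signal of a peak comes from the caller and has no unit, and the −log10 of the global IDR deposited by the authors was used as the threshold (2 or more). Names of the aligner and caller, and their settings, are not given in the sources used here. Every list was made with a control alignment, per the deposited README files. The ranked list of the larger set held 65647 peaks and the thresholded one 5753, the conservative set 5709, replicate 1 3827 and replicate 2 4000. Coordinates are dm6 per the labels, 1-based. Read depth was unknown, and fragments were 200 to 800 bp per the labels.

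Genes and transcripts came from Ensembl release 115 on the same assembly, sequence from RefSeq. A summit's class was the first that applied of promoter (500 bp around any start), UTR, exon (coding before other), intron and intergenic. A replicate's peak matched a summit at most 100 bp away. Motifs were searched as exact letters on both strands. Steps used Python 3.11.15, pandas 2.3.3, numpy 2.4.6 and matplotlib 3.10.9, and were checked on simulated summits. No test was made, because there was 1 group. The members, lists and motifs were chosen with earlier results of these data known. Named were the 10 members, the gene with the strongest summit in each of 4 related lists (47 genes, 2 matched by an older symbol), Gug, and neighbours nearer to a summit or holding it. Alternatives are in the closing section.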

Additional observations from a re-analysis of the deposited data

How the results depend on the processing

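The number of the 10 genes with a summit was 7 and ran from 5 (gene body only) to 8 over 11 alternatives, within 1.5 times of 7 throughout, while the share of all coding genes ran from 12.4% (gene body only) to 33.5% (from 5000 bp upstream). The replicates' own lists, each without the other replicate, gave 6 without replicate 2 (20.3% of all coding genes) and 6 without replicate 1 (21.1%). The number with a summit near a start (6) ran from 4 to 7, against 11.8% to 24.4% of all coding genes, and that of related genes (13) from 10 to 18. The 22 summits fell to 11 when a thresholded peak of each replicate had to overlap, and to 12 to 16 in the lists without 1 replicate (16 without replicate 2, 12 without replicate 1). The 8 promoter summits fell to 5 with that overlap and to 4 to 5 without 1 replicate. The cause of these changes was not tested. The 2 alternatives chosen after seeing the data were the ranked peaks with an IDR of 0.01 or less (8 genes, 25 summits, 26.0% of all coding genes) and leaving out summits nearer to another coding gene's start (6 genes, 16 summits, 17.9% of all coding genes). Of 110 counts for single genes, 84 stayed within 1.5 times and 26 moved. HDAC1 and ebi had 0 in the gene body alone and HDAC6 had 0 in either replicate's list. Under an IDR of 0.001 or less in the ranked list Sin3A had 3, HDAC6 had 0 in place of 2 and HDAC4 had 2 in place of 4, so the 7 genes there (20.4% of all coding genes) included Sin3A and not HDAC6. Without replicate 1, HDAC4 had 1. For genes with a summit in both replicates' lists, 27 of 42 percentiles of the strongest signal moved by at most 1 SD of the replicates' 2 values, and 15 moved by more. The replicates' values are themselves among the 42, and an SD of 2 values is a rough measure. No conclusion on stability is drawn from this count. No paired analysis was possible because there was a single group. Unknown depth limits every statement on a missing peak: a gene without a summit is one where none was listed.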
